A study of Mus musculus with 2 samples.

Results

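Gfi1, Zeb1, Bcl6, Bach2, Foxp1, Sox4, Myb and Satb1, 8 transcriptional regulators of thymocyte stage and identity, were examined in double-positive (DP) thymocytes that carry a conditional deletion of Bcl11b and in controls. They were picked by name, and every array probe carrying one of these names was taken, Zeb1 also under its older name Tcf8. The 8 genes had 15 probes, of which 14 passed the filter on dim signals, out of 21541 probes and 14921 genes that passed in all. RNA of Bcl11bF/FCD4Cre/Tcra-/- cells carried Cy5 and RNA of TCRa-/- cells carried Cy3 on each of 2 mouse 2-colour arrays, called biological replicates 1 and 2, with no dye swap. Cre driven by CD4 control sequences acts on floxed Bcl11b in the first genotype, here called Bcl11b-deficient, while the second, here called control, is labelled with neither Cre nor the floxed gene. Dye and genotype therefore cannot be told apart, nor can effects of Cre itself and of losing Bcl11b. Both genotypes lack Tcra, so neither can form the alpha beta receptor and pass selection. The labels give no ages, no number of mice per sample and no method of isolating DP cells.

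Thymocytes pass from double-negative precursors through the DP stage to single-positive cells, and transcription factors, repressors among them, keep each stage distinct from the next. Gfi1, Zeb1, Bcl6 and Bach2 are repressors that bind DNA and recruit corepressor enzymes. Foxp1, Sox4 and Myb set survival, proliferation and gene recombination during T cell development, and Satb1 organises chromatin loops of T cell genes. Bcl11b, a zinc finger factor of the T lineage, is itself needed for commitment to that lineage.

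None of the 8 regulators passed limma's test over all genes, and none differed by 1.5-fold or more in 1 direction on both arrays. The background for that fold was 3.68% of genes, and the adjusted test called 0% of them (0 of 14921). Two-sided limma p values without adjustment were under 0.05 for 2 of the 8, Gfi1 and Myb, both lower, against 29.2% of all genes and 14.1% in the lower direction. On both arrays 5 of the 8 read lower in Bcl11b-deficient cells and 1 higher, where all genes gave 38.5% and 36.4%, and 2 had opposite signs on the 2 arrays against 25.1%. Settings that did call genes, the separate-channel model (8.55% of genes), median centring (6.58%), processed signals (0.885%) and the deposited value table (0.831%), called none of the 8. The log2 ratio of Bcl11b-deficient over control, averaged over the 2 arrays, ran across the 14 probes from -0.44 to 0.26. The median over the 8 genes was -0.08, beside -0.0034 over all genes.

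The size of a change that these arrays leave possible differed by gene. Where a gene had several kept probes, the brightest stood for it, and its moderated 95% interval comes from limma with n = 2 arrays. After loess the interval of 7 of the 8 genes lay within 2-fold of control, that of 3 within 1.5-fold, and that of Sox4 reached down to 47.5% of the control level. These bounds hold for loess only: Satb1 was at 0.97 ± 0.18 under median centring and -0.60 ± 0.21 under centring on probes of like intensity, and Bach2 at 0.29 ± 0.35 with processed signals. All 14 probes were well above background in both channels on both arrays and none was saturated, so none of these values is a bound. The number of arrays limits the precision of every value here, and each test has 1 residual degree of freedom.

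**Figure D1:**
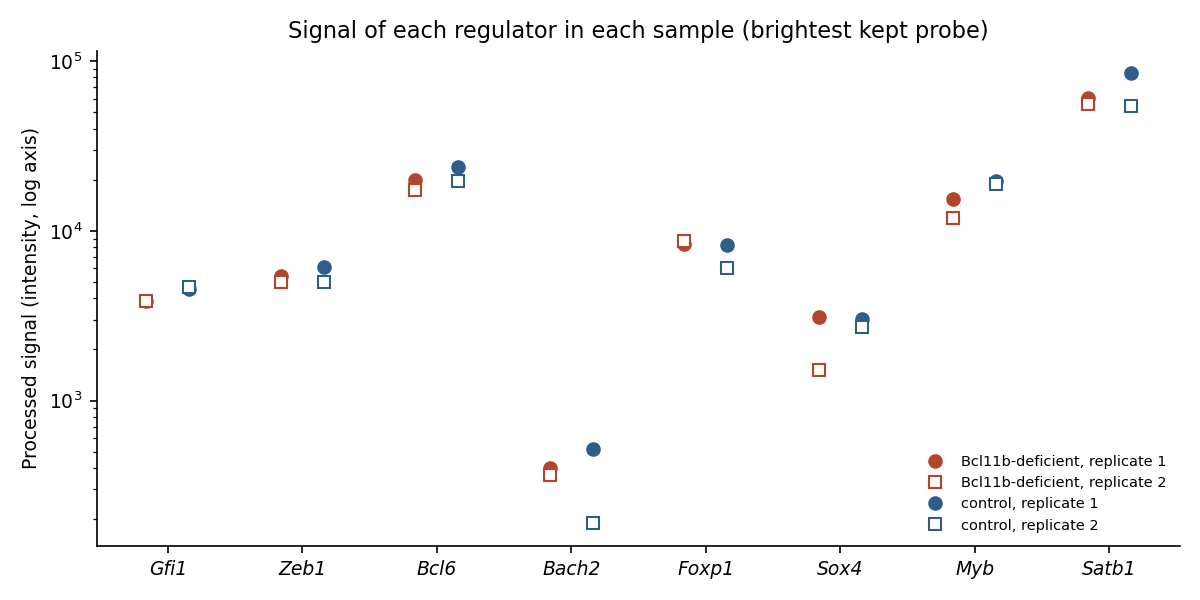
Processed signal (scanner intensity, log axis) of the brightest kept probe of each regulator, with Bcl11b-deficient samples left of control samples and replicates 1 and 2 as filled circles and open squares. Sox4 stood apart in 1 deficient sample (1513) and Bach2 in 1 control sample (190), and levels of different genes cannot be compared because each probe has its own response.

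Gfi1 encodes a zinc finger repressor that recruits the demethylase Kdm1a with its partner Rcor1 and holds down Il7r in lymphocytes. Its single probe (mm8 chr5:107957135-107957194, minus strand) gave processed signals of 3856 and 3850.0 in Bcl11b-deficient samples of replicates 1 and 2, against 4514 and 4670 in control samples. Both deficient values lay below both control values. Here and below, such comparisons of groups use processed signals without pairing by array, and the share of all genes that separate likewise is not given. Log2 ratios of -0.23 and -0.26 averaged -0.25 ± 0.07 (SE, n = 2 arrays; limma's adjusted p = 0.138), which is 84.3% of control with an interval from 73.0% to 97.2%. The 2 arrays differed by 0.03, and only 12.6% of genes had a smaller gap. Processed signals also gave -0.25, while median centring in place of loess gave 0.07.

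Zeb1 encodes a zinc finger and homeodomain repressor of E-box sites, and mice with a truncated Zeb1 have a small thymus. Its probe, on chromosome 18 from 5774613 to 5774672 (mm8, plus strand), gave 5423 and 4981 in Bcl11b-deficient samples and 6130.1 and 4994 in control samples. The groups overlapped, since the second control sample lay below the first deficient one. The mean log2 ratio was -0.12 ± 0.09 (limma, adjusted p = 0.429), with -0.22 on replicate 1 and -0.01 on replicate 2. Its interval ran from 76.8% to 110.6% of control.

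Bcl6 encodes a BTB zinc finger repressor, best known for germinal centre B cells and follicular helper T cells. Its probe (mm8 chr16:23880423-23880482, minus strand) gave 19986 and 17411 in Bcl11b-deficient samples, against 23820.5 and 19573 in control samples. The ranges overlapped between the groups. With ratios of -0.05 and -0.03 the mean was -0.04 ± 0.07 (limma, adjusted p = 0.710), or 97.1% of control with an interval from 84.2% to 112.0%. Processed signals gave -0.21 and median centring 0.51, so the sign of this small value rests on the normalization.

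Bach2 encodes a BTB leucine zipper repressor that pairs with small Maf proteins and restrains effector programmes in lymphocytes. Of its 2 probes, the one kept (mm8 chr4:32909704-32909763, plus strand) gave 402 and 363 in Bcl11b-deficient samples and 516 and 190 in control samples. The groups overlapped, and the second control sample was 0.368 times the first, while the second deficient sample was 0.902 times the first. The log2 ratio was therefore -0.23 on replicate 1 and 0.62 on replicate 2, a gap of 0.85 that is wider than those of 98.2% of genes. The mean of 0.20 ± 0.24 (limma, adjusted p = 0.606) had an interval from 70.5% to 186.3% of control. The other probe, designed on the transcript AK051132, was not well above background in either channel on either array and gives no fold.

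Both Bcl6 and Bach2 are also genes of B cells, so B cell markers were measured beside them. Of 10 such markers 7 were kept, 5 of them lower on both arrays and none higher, with a median log2 ratio of -0.21. Their summed processed signals were 4115 and 3009 in Bcl11b-deficient samples and 6412 and 3836 in control samples. Cd79a, Ebf1 and Fcrla were not kept as above background, whereas Cd79b, a chain of the B cell receptor complex, gave 3223 and 2489 in deficient samples and 4810.3 and 3166 in control samples. Their part in the Bcl6 and Bach2 values was not tested, and in bulk RNA fewer cells of a type and less RNA per cell cannot be told apart.

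**Figure D2:**
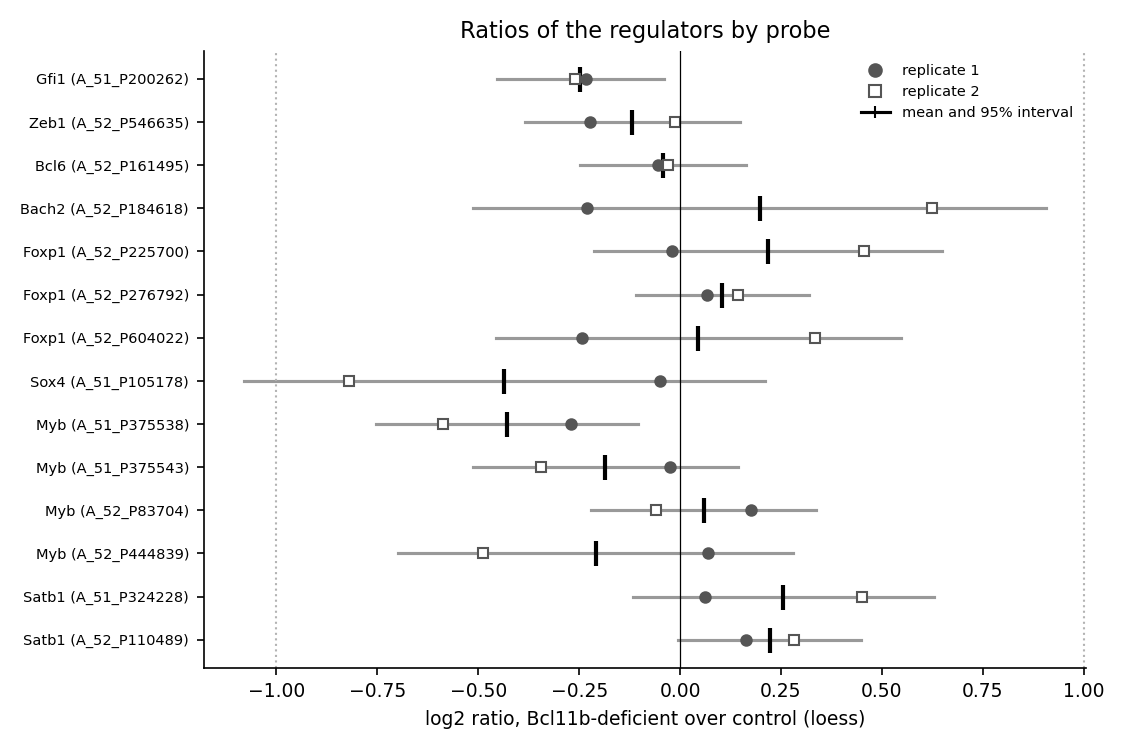
Log2 ratios of Bcl11b-deficient over control for the 14 kept probes of the 8 regulators (horizontal axis), with replicate 1 as filled circles, replicate 2 as open squares, and the mean with limma's 95% interval as a tick on a grey bar. The intervals of Gfi1 and of the brightest Myb probe end below 0, and dotted lines mark 2-fold.

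Foxp1 encodes a forkhead factor that keeps naive T cells quiescent. The brightest of its 3 kept probes (mm8 chr6:98892636-98892695, minus strand) gave 8305 and 8712 in Bcl11b-deficient samples and 8272 and 6062 in control samples. Both deficient samples lay above both control samples, narrowly on replicate 1. The mean log2 ratio was 0.22 ± 0.15 (limma, adjusted p = 0.379), with -0.02 and 0.46 on the 2 arrays. The probe designed on the transcript NM_053202, whose 2 ends lie 4338 bases apart in the genome, gave 0.07 and 0.14, and the third, designed on AK031837, gave -0.24 and 0.33. Means of the 3 probes spanned 0.17, as wide as the median of 0.17 over all 4730 genes with several kept probes.

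Sox4 encodes an HMG box factor of early lymphocyte development. Its probe (mm8 chr13:28959662-28959721, minus strand) gave 3087 and 1513 in Bcl11b-deficient samples and 3035 and 2729.9 in control samples. The groups overlapped: the deficient sample of replicate 1 was the highest of the 4 and that of replicate 2 the lowest. Log2 ratios of -0.05 and -0.82 averaged -0.44 ± 0.22 (adjusted p = 0.273 in limma), with an interval from 47.5% to 115.1% of control. Only 4.09% of all genes had a lower mean, yet 97.6% had a smaller gap between arrays. Without replicate 2 the value is -0.05, so the low mean rests on 1 deficient sample.

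Myb encodes a factor needed for progression of early thymocytes and for survival of DP cells. The brightest of its 4 probes (mm8 chr10:20814832-20814890, minus strand) gave 15314 and 11865 in Bcl11b-deficient samples, against 19542 and 18889 in control samples. Both deficient samples lay below both control samples. The 2 arrays gave -0.27 and -0.59 on the log2 scale, a mean of -0.43 ± 0.11 (adjusted p = 0.123 in limma) that is 74.3% of control with an interval from 59.5% to 92.8%. Processed signals gave -0.51, centring on probes of like intensity -0.48, and median centring 0.12.

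The other Myb probes read closer to control. One, designed on NM_010848 and lying next to it at 20814573 to 20814632, was spotted 10 times on each array, which shows the spread of spots within a hybridisation. Its spots ran from -0.07 to 0.01 on replicate 1 (median -0.02, SD 0.02) and from -0.39 to -0.29 on replicate 2 (median -0.35, SD 0.03). Spots of the 2 arrays did not overlap, and the mean was -0.19 ± 0.11 (limma over all probes, adjusted p = 0.352). The probe at 20836401 to 20836460 gave 0.18 and -0.06, and the one at 20841991 to 20842050 gave 0.07 and -0.49. Means of the 4 probes spanned 0.49, wider than the upper quartile of 0.29 over all genes with several kept probes. The mean of all 4 probes was -0.19 (limma, adjusted p = 0.327), so a Myb value as low as -0.43 rests on its brightest probe.

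Satb1 encodes a chromatin organiser that binds AT-rich DNA and is abundant in thymocytes. Its brighter probe (mm8 chr17:51204741-51204800, minus strand) gave 60629 and 55992 in Bcl11b-deficient samples and 84658 and 54119 in control samples. The groups overlapped. After loess the log2 ratios of 0.06 and 0.45 averaged 0.26 ± 0.13 (adjusted p = 0.267 in limma), while processed signals of the same probe gave -0.48 and 0.05. The second probe, at 51272068 to 51272127, gave 23063 and 34115 in deficient samples and 23607 and 33305 in control samples. Its ratio was 0.22 ± 0.08 after loess (limma over all probes, adjusted p = 0.189) and 0.00051 from processed signals.

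The sign of the Satb1 ratio differed between normalizations, and bright spots as a class read high after loess. Within 0.25 log2 units of its intensity lay 75 genes with a median ratio of 0.82 and quartiles of 0.56 and 1.16. Against them Satb1 was low, and centring on probes of like intensity gave -0.60 (limma, adjusted p = 0.174). For the other 7 regulators the median of genes of like intensity lay between -0.05 and 0.05. No direction can be given for Satb1 from these arrays.

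**Figure D3:**
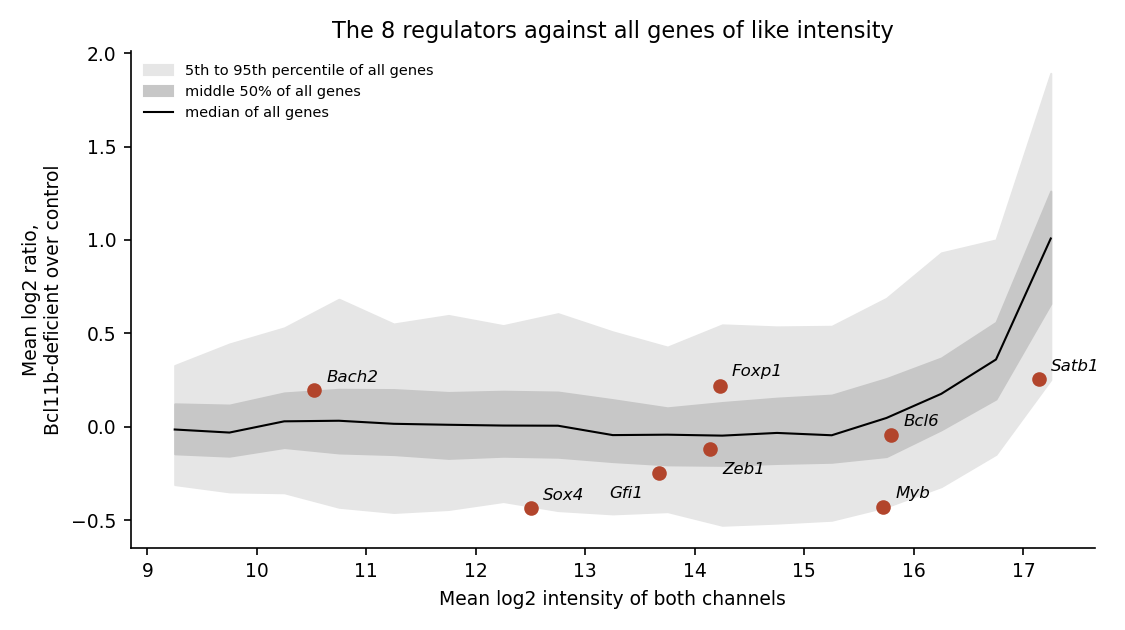
Mean log2 ratio of Bcl11b-deficient over control against mean log2 intensity of both channels for the 8 regulators (points), over the median, the middle 50% and the 5th to 95th percentiles of all 14921 genes in bins of intensity. The median of all genes turns up to 1.01 in the brightest bin, where Satb1 reads 0.26.

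Promoter windows are shown for Sox4, Myb and Gfi1, the 3 regulators with the lowest mean ratios, so that the letters upstream of these genes stand beside their values. Windows of 250 bases before to 50 after the start site (RefSeq, GRCm38.p6) were taken for 7 of the 8 genes, Zeb1 being left out, 15 windows in all. They were searched on both strands for short core motifs of the regulators themselves and of BCL11 proteins: CAACNG (MYB), AAATCA (GFI1), TTCNTAGAA (BCL6), CAGGTA or CAGGTG (ZEB1), ACAAAG or ACAATG (SOX factors), TGTTTAC (forkhead factors), TGAGTCA (BACH2 and AP-1) and TGACCA (BCL11). Capitals mark the matches in the 3 windows below, chr13:28953650-28953949, chr10:21160935-21161234 and chr5:107725756-107726055, all on the minus strand and written 5′ to 3′ along the gene.
Sox4: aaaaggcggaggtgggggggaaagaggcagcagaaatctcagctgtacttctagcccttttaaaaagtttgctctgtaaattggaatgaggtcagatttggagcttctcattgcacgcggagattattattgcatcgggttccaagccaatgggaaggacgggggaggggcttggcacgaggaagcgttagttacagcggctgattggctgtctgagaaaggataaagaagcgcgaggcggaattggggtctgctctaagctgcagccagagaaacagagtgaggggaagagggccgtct
Myb: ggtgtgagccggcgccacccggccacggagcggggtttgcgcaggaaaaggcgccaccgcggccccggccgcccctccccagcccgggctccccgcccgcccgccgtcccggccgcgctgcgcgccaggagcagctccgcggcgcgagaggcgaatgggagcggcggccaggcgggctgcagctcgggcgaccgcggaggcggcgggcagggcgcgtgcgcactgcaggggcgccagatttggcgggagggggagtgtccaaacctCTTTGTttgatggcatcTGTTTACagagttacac
Gfi1: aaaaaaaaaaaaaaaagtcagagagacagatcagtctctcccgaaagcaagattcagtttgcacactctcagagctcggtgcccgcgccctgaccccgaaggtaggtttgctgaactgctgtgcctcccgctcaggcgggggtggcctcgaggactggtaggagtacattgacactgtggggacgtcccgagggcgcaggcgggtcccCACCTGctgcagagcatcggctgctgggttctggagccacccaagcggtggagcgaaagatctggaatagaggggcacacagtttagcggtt

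The Myb window held 1 SOX and 1 forkhead motif close to the start site, this Gfi1 window 1 ZEB1 motif, and the Sox4 window none. A second Gfi1 window, chr5:107724294-107724593, had no match. Over the 15 windows, 2 of which overlap, SOX motifs were in 7, ZEB1 motifs in 4, MYB and GFI1 motifs in 3 each and the forkhead motif in 1. Among all 32851 windows the shares were 28.6% for SOX, 29.5% for ZEB1, 35.0% for MYB, 14.0% for GFI1 and 3.65% for forkhead. BCL6, BACH2 and BCL11 motifs, found in 1.07%, 5.20% and 13.6% of all windows, had no match in the 15. A match is a description of letters, not of binding.

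Family relatives of the 8 regulators gave 8 kept genes of 12, with 4 lower and 3 higher on both arrays and a median log2 ratio of -0.11. Mybl2, a Myb relative active in dividing cells, was at 0.43 ± 0.08 and Zeb2, the second ZEB repressor, at 0.42 ± 0.08 (0.86 from processed signals). Sox11, a relative of Sox4, read -0.42 ± 0.10 (-0.85 from processed signals), and Foxp4 -0.31 ± 0.08 with a deficient signal above background on 1 of 2 arrays. Foxp2 stood at 0.13. Bach1 gave 0.46 and -1.10, opposite signs as for Bach2 but the other way round. Gfi1b, Foxp3 and Mybl1 were among those not kept as above background. Here and in every list below limma called 0 genes after adjustment.

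Corepressors and cofactors with which the regulators work gave 20 kept genes of 21, 8 lower and 9 higher on both arrays, with a median of 0.06. Kdm1a (-0.35 ± 0.10) and Rcor1 (-0.46 ± 0.09), the demethylase and scaffold recruited by Gfi1, read lower on both arrays, but median centring gave 0.07 and -0.06. Maff, a small Maf protein, was at -0.74 ± 0.08 and alone in this list reached 1.5-fold on both arrays, against 1.21% of all genes in that direction. Its signals were 352 and 369 in Bcl11b-deficient samples and 661 and 784 in control samples, with no overlap. Mafk, another small Maf, stood at 0.35 ± 0.13. Mta3, a NuRD subunit that works with Bcl6, was at 0.77 ± 0.13.

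Of 30 genes reported elsewhere as controlled by 1 or more of the regulators, 25 were kept, with a median of 0.06. At least 1.5-fold higher on both arrays were 6, and 1 was lower, where all genes gave 2.47% and 1.21%. The 6 include Zbtb7b and Runx3, which passed the filter only by their deficient signals. The list was chosen with earlier results of these data known, so these counts only describe it. Il7r, the interleukin 7 receptor chain, had signals of 1064 and 842 in Bcl11b-deficient samples and 241 and 81.3 in control samples. The groups did not overlap, and the ratio was 1.60 ± 0.09 after loess (limma, adjusted p = 0.0663) and 2.76 from processed signals. Id2, an inhibitor of E proteins, gave 2424 and 3658 in deficient samples and 800.4 and 595 in control samples, at 1.94 ± 0.27. Zbtb7b, the CD4 lineage factor, gave 255 and 445 in deficient samples over control signals of 25.7 and 10.1 that were not well above background.

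The low end of the same list held Ccr9, a chemokine receptor of thymocytes, with 19098 and 9772 in Bcl11b-deficient samples and 36321 and 43389 in control samples (-1.37 ± 0.34). Cd69, a marker of receptor signalling, was at -0.63 ± 0.17 (-1.18 from processed signals) and the recombinase gene Rag2 at -0.57 ± 0.10. Prdm1, the classic target repressed by Bcl6 and Bach2, was not kept as above background, nor were Cdh1, Il2, Irf4 and S1pr1. Whether any of these values follows from a regulator was not tested.

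Genes of stages on either side of DP were set beside the regulators. Early thymocyte genes gave 15 kept of 20, 9 higher and 3 lower on both arrays, with a median of 0.36. Hes1, among the 9, passed the filter only by its deficient signals, and Gata2, among the 3, only by its control signals. Lyl1, a bHLH factor of progenitors, read 2.43 ± 0.38, and Cd44, an adhesion receptor of early precursors, 0.94 ± 0.17. Lmo2 (-0.25 ± 0.07) and the pre-receptor chain gene Ptcra (-0.24 ± 0.07) were at the low end. Mature thymocyte genes gave 16 kept of 20, 7 higher and 6 lower, with a median of 0.01, from Itgb7 (2.66 ± 0.32) and Emb (0.96 ± 0.08) to Cd52 (-1.30 ± 0.17) and Cd6 (-0.36 ± 0.09, but 0.21 under median centring). All 22 cell cycle genes were kept, 20 of them higher on both arrays and 0 lower, with a median of 0.49. Mcm6 (1.08 ± 0.09), Pcna (0.76 ± 0.09) and Mcm3 (0.75 ± 0.09) were highest after loess, where processed signals gave 0.80, 0.41 and 0.83, and Mcm2 (0.20 ± 0.07) and Ccnb1 (0.13 ± 0.10) were lowest.

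**Figure D4:**
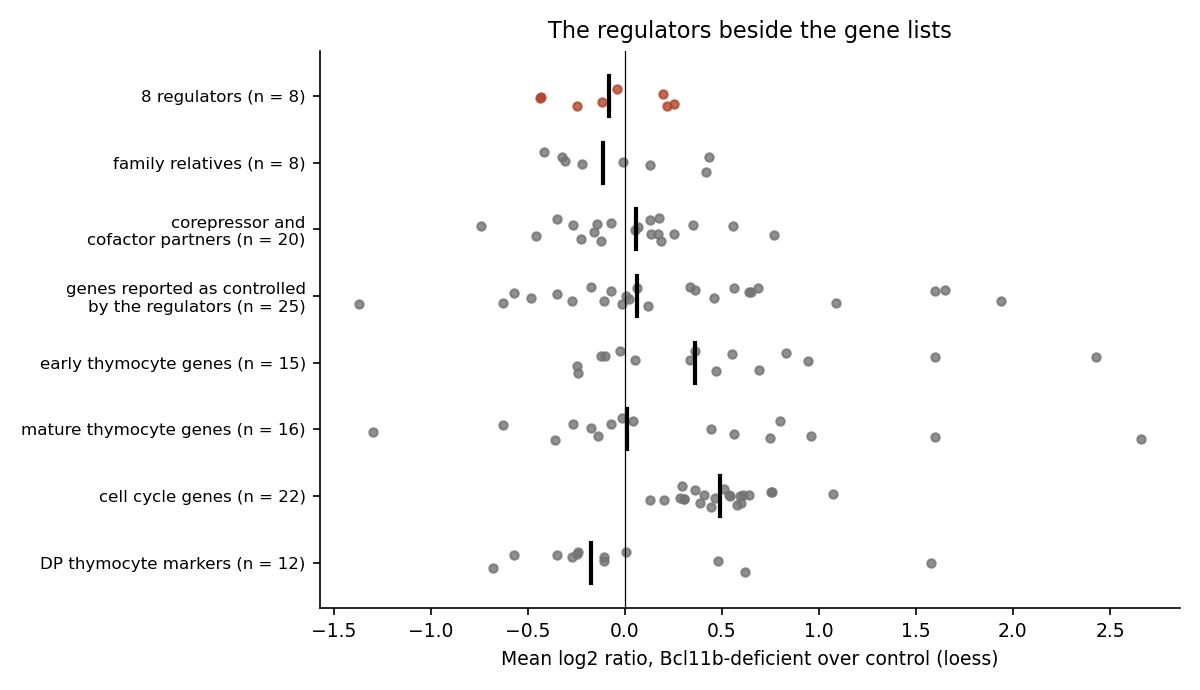
Mean log2 ratio of Bcl11b-deficient over control for the 8 regulators (top row) and for the kept genes of 7 lists, each point a gene and each black tick a median. The regulators lie between -0.44 and 0.26, while cell cycle genes have a median of 0.49; in the list of controlled genes the points of Zbtb7b (1.65), Hes1 (0.33) and Runx3 (1.09) are only fitted, since their control signals were not above background on 1 or both arrays.

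Defining genes and markers of other cells give the setting of these values. Bcl11b itself had 2 probes, at -0.84 ± 0.31 and -1.76 ± 0.22 (limma over all probes, adjusted p = 0.205 and 0.0964). The first gave -1.40 on replicate 1 and -0.28 on replicate 2, which median centring turned to 0.25, and the second gave -1.37 and -2.16. Both probes stayed well above background in Bcl11b-deficient samples, and which part of the gene is deleted is not given in the sources used here. All 12 markers of DP cells were kept, 8 lower and 4 higher on both arrays, with Cd8b1 at 0.48 ± 0.07, Dntt at 1.58 ± 0.10, Cd4 at -0.35 ± 0.12 and Arpp21 at -0.68 ± 0.07. These values moved with the normalization, as processed signals gave 0.07 for Cd8b1 and 1.07 for Dntt, and median centring turned the median of the DP markers to 0.26, against -0.17 after loess. Macrophage markers were higher on both arrays for 8 of 10, with summed signals of 35083 and 33507 in Bcl11b-deficient samples and 32794 and 12253 in control samples. Most of each sum was Lyz2, at 25054 and 28033 in deficient samples and 23207 and 8756 in control samples. Mrc1, among the 8, passed the filter only by its deficient signals. Stromal or epithelial markers were higher for 5 and lower for 2 (Krt5 and Epcam) of 8 kept, with sums of 9303 and 3335 in deficient samples and 9519.9 and 1927 in control samples. Col1a1 and Col1a2, among the 5, passed the filter only by their deficient signals. With probes above background in both channels the median log2 ratio of this list was -0.27, against 0.69 in the reported setting. NK cell markers, 5 kept of 8 with Ncr1 and Gzmb not above background, were higher on both arrays for 3 and lower for 1, and summed to 3914 and 4210.2 in deficient samples and 1661 and 1107 in control samples. Erythroid markers, 3 kept of 6 with 1 lower and 0 higher on both arrays, summed to 24501 and 43531 in deficient samples and 39812 and 10028 in control samples. Nearly all of each sum was Hba-a1, at 23196 and 41233.5 in deficient samples and 38107 and 9457 in control samples. Only 3 of 6 gamma delta T markers were kept, 2 higher and 1 lower, with sums of 3982 and 2653 in deficient samples and 1527 and 934 in control samples. Most of each sum was Cd163l1, at 3819 and 2508 in deficient samples and 1380 and 784 in control samples. Il17a, the other higher gene, passed the filter only by its deficient signals, and Blk, the lower, is also among the B cell markers. The part of any of these other cell types in the regulators' values was not tested.

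**Figure D5:**
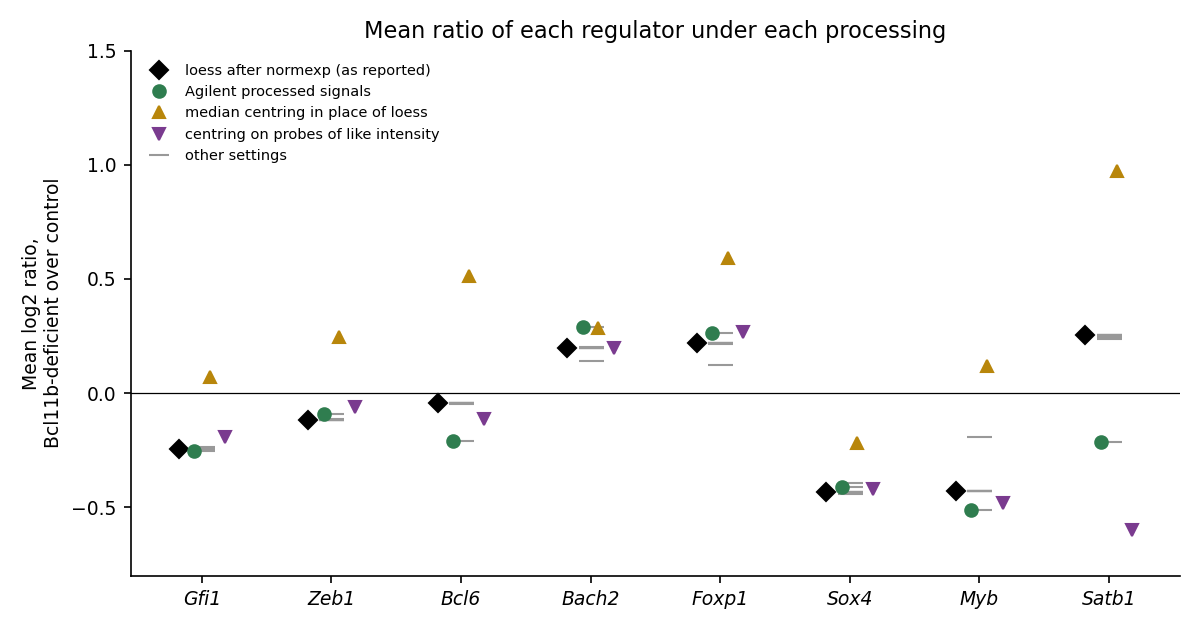
Mean log2 ratio of Bcl11b-deficient over control for each regulator with loess after normexp (black diamonds) and under the alternatives that gave a fit on both arrays (coloured points and grey dashes). Median centring lies highest for 7 of the 8, Bach2 being the exception, Satb1 ranges from -0.60 to 0.97, and Sox4 stays below 0 throughout.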

How the data were processed

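The authors read both 2-colour scans with Agilent Feature Extraction 9.5.3.1, per the submitters' processing notes. Mean and local background signals are uncorrected scanner intensity as deposited. Processed signals are intensity from which the authors' software had removed background, spatial trend and dye bias, per the file headers. The deposited log10 ratio is that of processed Cy5 over processed Cy3, and the deposited value table of the series equals it to within 0.005, its unit not being given in the sources used here. Probe positions are those of mm8, per the file headers. Arrays lay on 1 slide scanned together, so slide and scan do not separate them. Batches of mice, RNA preparation or labelling are not given in the labels.

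Using limma 3.58.1 (R 4.3.3; statmod 1.5.0 for the separate-channel model), background was corrected by normexp with an offset of 50 and each array was fitted by loess, in which controls had weight 0. Outlier flags removed 108 and 116 spots before repeated spots were averaged. The filter kept 21541 of 41174 probes, those well above background on both arrays in at least 1 channel. Current symbols came by accession (24496 probes), symbol (6234) or unique synonym (2386), and 8058 kept the file's name. Each gene took its brightest kept probe. Mean log2 ratios were tested against 0 with limma's moderated test on 1 residual degree of freedom (prior 2.50), adjusted by Benjamini-Hochberg at 0.05 over all 14921 genes or all kept probes. In "lower" or "higher on both arrays" both ratios have that sign. Lists are given by counts and medians, without a set test. Named from each list were the 3 highest and 3 lowest kept genes where signals allowed a value, apart from items that are not reported here. Members and lists were chosen with earlier results of these data known. Alternatives were other background corrections, normalizations, filters, probe summaries and a separate-channel model, and leaving out each array. Before correction the median spot had 1158 and 1251 units for Bcl11b-deficient RNA against 842 and 848.0 for control RNA, close to negative controls (923 and 1036 against 696 and 732).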

Additional observations from a re-analysis of the deposited data

How the results depend on the processing

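No regulator passed the adjusted threshold in any of 11 alternatives fitted on both arrays, 88 fits in all, where the smallest limma adjusted p was 0.0549 (Satb1, median centring). Across the alternatives, the single arrays included, 95 values of regulators kept their sign and 9 did not. Many of the 95 are not separate evidence. The separate-channel model, keeping flagged spots, dropping the dim filter and requiring both channels above background gave every regulator the reported mean. The value table nearly repeats the processed signals. These counts therefore do not measure how stable the signs are. Median centring, which raised the median of all genes by 0.13 and does not correct ratios by intensity, turned Gfi1 to 0.068, Zeb1 to 0.25, Bcl6 to 0.51 and Myb to 0.12. Relative to the median of all genes in that setting Gfi1 (-0.06) and Myb (-0.01) stayed below 0, and Zeb1 (0.11) and Bcl6 (0.38) did not. Satb1 turned to -0.22 with Agilent processed signals, -0.22 with the series value table and -0.60 with centring on probes of like intensity. Leaving out 1 array gave -0.23 to 0.62 for Bach2 and -0.021 to 0.46 for Foxp1. Genes called over all genes were 0 in the reported setting, 1276 with the separate-channel model, 982 with median centring, 132 with processed signals and 124 with the value table, with none of the 8 among them. The causes were not tested. The count of regulators at least 1.5-fold different was 0, but 1 with median centring (Satb1), and with a single array it ran from 0 without replicate 2 to 3 without replicate 1. For list medians, 119 alternative values moved by less than the spread between arrays and 50 by more. That spread comes from the list's own medians on the 2 arrays, so lists whose arrays differ most pass most easily. Erythroid markers, at -0.38 and 1.92 on the 2 arrays, are such a list. The separate-channel model and keeping flagged spots left every list median unchanged, which adds to the 119. Bach2 is the regulator measured nearest to background, and the part of low signal in the gap between its arrays was not tested.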
